A study of Mus musculus with 6 samples.

Results

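The genes described here are 6 genes at 3 places in the mouse genome, *Stard13* with *Gm8675* on chromosome 5, *Gm44787* with *Gm9964* on chromosome 11, and *Prss51* with the overlapping *Prss55* on chromosome 14. They were chosen by their counts in these same libraries, as neighbouring genes with strong increases in knockout muscle, out of 52636 genes in the table. The values of the 6 genes are therefore given as a description, with no test. The annotated genes around each locus, which took no part in the choice, are described on both strands.

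The libraries come from tibialis anterior muscle, which moves the ankle, of male C57BL/6 mice kept under 12 h of light and 12 h of dark. The 3 samples of iMS*Bmal1*-/- muscle, called knockout here, are labelled HSA-MCM-Bmal1-/- and came from mice given 2 mg of tamoxifen per day for 5 days, starting at 12 to 16 weeks of age. The 3 samples of iMS*Bmal1*+/+ muscle, called control, are labelled HSA-MCM-Bmal1+/+ and came from mice of the same ages injected for 5 days with vehicle, sunflower seed oil with 15% ethanol. Muscles were collected 5 weeks after the injections. Both groups carry loxP sites in *Bmal1* and a tamoxifen-inducible Cre (MCM) under the human skeletal actin (HSA) promoter, which acts in muscle fibers and not in the other cells of the tissue. The loss of *Bmal1* and the tamoxifen cannot be told apart in this design. The control libraries held 2091912, 1997203 and 2716079 counts on genes, and the knockout libraries held 2403438, 1616290 and 2068657. The authors give a number of reads per sample far above these totals, and where the other reads fell was not examined.

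BMAL1 pairs with CLOCK and binds E-box sequences to drive the daily rhythm of clock genes, among them repressors that feed back on the pair. *Stard13*, also called *Dlc2*, encodes a protein with a lipid-binding START domain and belongs to the DLC family. The *Prss* genes encode trypsin-like serine proteases, and PRSS55 is known as a protease of sperm. A processed pseudogene such as *Gm8675* is a copy of a spliced mRNA that was inserted elsewhere in the genome, and a lincRNA such as *Gm44787* is a long RNA from between genes with no known protein.

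The targeted gene itself, *Bmal1* (listed as *Arntl*), had 5, 4 and 11 counts in the control libraries and 13, 5 and 5 in the knockout libraries. The groups overlapped, and with so few counts over the whole gene the labelled genotypes could not be checked from it. These low counts are not read as a low level of *Bmal1* mRNA. All 13 genes of a list of fast muscle fiber markers, which go with the labelled tissue, had enough counts to be tested, although that alone does not identify a tissue. A value given for a gene is the deposited count on its exons, and the strand of the transcripts behind it was not settled, as the counts given with the neighbours show.

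Differences between the genotypes were estimated from the counts with the quasi-likelihood test of edgeR, for 6831 genes that passed a filter on low counts, with p-values adjusted by the Benjamini-Hochberg method and a threshold of 0.05. Of these genes, 814 (11.9%) had an unadjusted p under 0.05, 125 (1.83%) passed the threshold and 52 (0.761%) did so with higher values in knockout. In 604 genes (8.84%) all 3 knockout libraries lay above all 3 control libraries in CPM, which are counts scaled to a common library size with TMM normalization. Of the 6 chosen genes, 5 passed the filter, and the same 5 are among the 52 and among the 604. Nothing is read from that, since the same contrast chose them and a gene that is high in 1 group can pass the filter through that group. The sixth, *Prss55*, did not pass the filter. Ordered by log2 fold change among increases past the threshold that averaged 1 CPM or more and whose groups stayed apart, *Stard13*, *Gm9964*, *Gm44787*, *Gm8675* and *Prss51* took ranks 1 to 5. Just after them came *Shbg*, the gene of sex hormone-binding globulin, with 7, 7 and 2 counts in control, 47, 21 and 31 in knockout and a log2 fold change of 2.68.

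**Figure D1:**
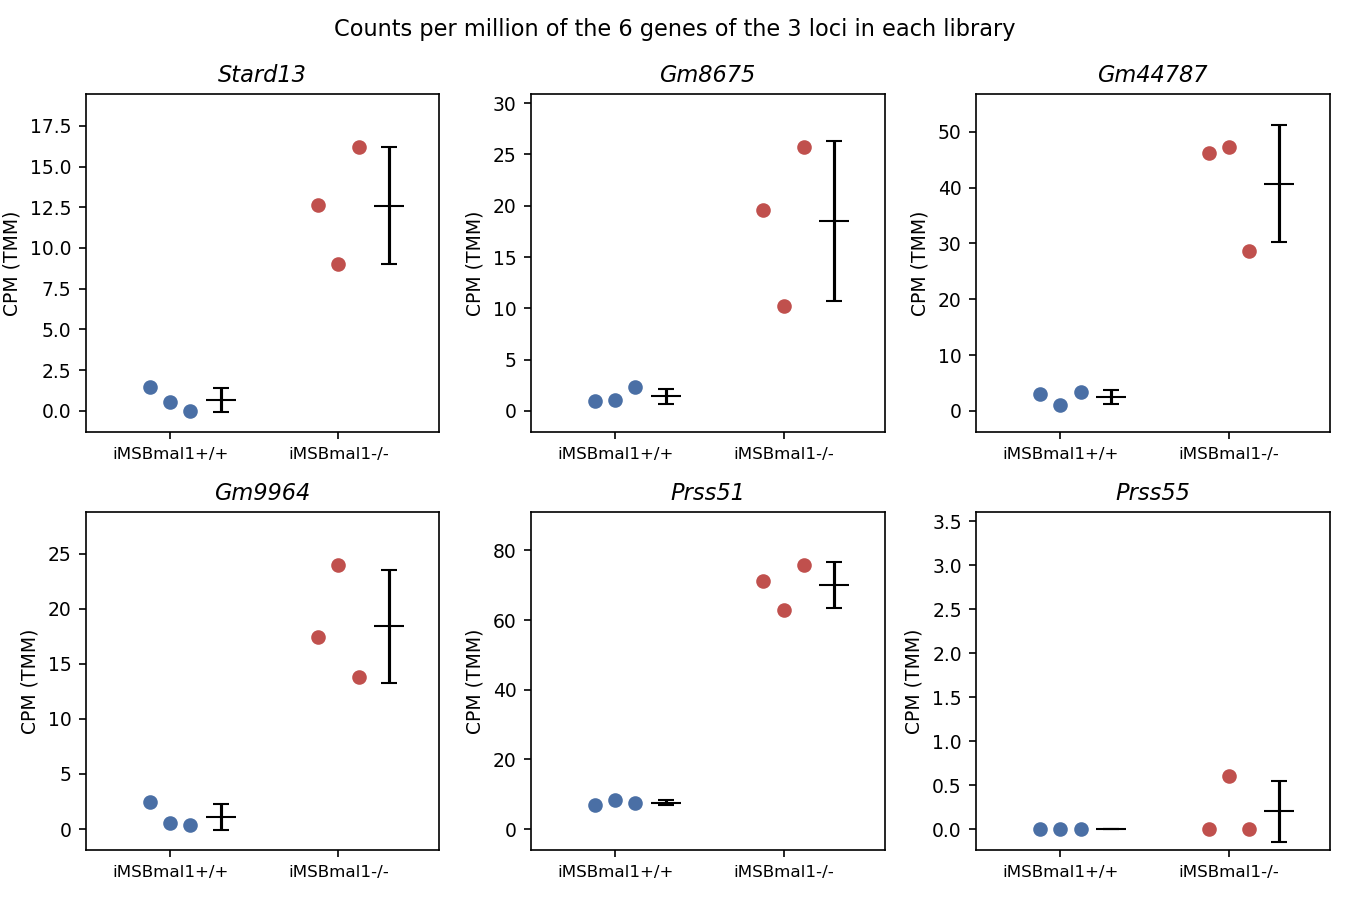
Level of each of the 6 genes in CPM (TMM, vertical axes, 1 scale per panel) by genotype, where each point is 1 library and the bar gives the mean with its SD (n = 3). In 5 panels the knockout libraries lie above the control libraries, and *Prss55* had 1 count in all 6 libraries.

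On the minus strand of chromosome 5 (build GRCm38), *Stard13* (ENSMUSG00000016128, chr5:151037510-151233836) and *Gm8675* (ENSMUSG00000106963, chr5:151007446-151009301) lie 28208 bp apart, with *Gm8675* beyond the 3′ end of *Stard13*. *Stard13* had 3, 1 and 0 counts in the control libraries and 29, 15 and 34 in the knockout libraries. Every knockout library was above every control library, and knockout replicate 2 was the lowest of its group. Its level was 0.669 ± 0.758 CPM (SD, n = 3) in control and 12.6 ± 3.61 CPM (SD, n = 3) in knockout, and the log2 fold change was 4.25 (standard error 0.60). The 4 control counts limit the size of this difference: the ratio of summed counts per library size, knockout to control, was 21.2 with an exact 95% interval from 7.94 to 79.6. Single libraries also moved it, since the log2 fold change was 5.51 without control replicate 1 and 3.57 without control replicate 3.

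The pseudogene *Gm8675* had 2, 2 and 6 counts in control and 45, 17 and 54 in knockout. The groups did not overlap here either, and knockout replicate 2 was again the lowest knockout library. The level went from 1.43 ± 0.730 CPM to 18.5 ± 7.84 CPM (SD, n = 3 each), an estimated log2 fold change of 3.59 (standard error 0.46) and a ratio of summed counts of 12.6 (95% interval 6.61 to 27.0). Of the counts on both genes, *Stard13* took 39.2% (Wilson 95% interval 28.9 to 50.6), 46.9% (30.9 to 63.6) and 38.6% (29.1 to 49.1) in knockout replicates 1 to 3, so the division between both genes was alike in the knockout libraries within counting error. In control it took 3 of 5, 1 of 3 and 0 of 6 counts, too few to set beside these shares. Per kilobase of annotated exon, *Gm8675* was the higher of the pair in knockout, at 9.97 ± 4.22 CPM per kb against 1.53 ± 0.437 for *Stard13* (SD, n = 3), whose 10 transcripts cover 8265 bp of exon not shared with another gene.

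Within 250 kb of this locus on either side the annotation holds 10 other genes, 6 on the plus and 4 on the minus strand. Together they had 89 counts in the 6 libraries (50 on plus-strand and 39 on minus-strand genes), 4 of them had none, and 0 passed the filter for a test. On the plus strand *Kl*, which encodes the FGF23 co-receptor klotho, ends 13628 bp before *Gm8675* and had 1 count, in a control library. The plus-strand lincRNA *5430435K18Rik* begins 18468 bp beyond *Stard13* and had 0, 2 and 3 counts in control and 0 in each knockout library. On the minus strand, *Gm42906* overlaps *Stard13* over 170291 bp of its span and had 0 counts in all 6 libraries. Of its 408 bp of exon, 329 bp are shared with *Stard13* on the same strand. Reads on shared exon may have been set aside in counting, which was not measured. The 0 of *Gm42906* is therefore not read as a level. The nearest other minus-strand genes are farther off: *Gm43298*, 124803 bp away with 0 counts, and *D730045B01Rik*, 133883 bp away. *D730045B01Rik* was the most counted neighbour, with 3, 7 and 11 counts in control and 3, 2 and 11 in knockout, and its groups overlapped. For the neighbours other than *Gm42906*, a count of 0 allows up to 3 counts, or 1.14 to 1.80 CPM in these libraries. This limit covers counting error only, so smaller levels or differences of these neighbours were not detectable at these totals of counts on genes. Against the 14 counts in control and 194 in knockout on *Stard13* and *Gm8675*, no other annotated gene in the window had more than 37 counts in all.

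The sequences of the pair were compared with all annotated transcripts of GENCODE release 21 to see how separately their reads can be placed. The *Stard13* transcript resembled its relatives *Dlc1* (68.3% identical over 1668 aligned bp) and *Stard8* (66.3% over 1579), the other members of the DLC family, and matched *Gm42906* completely over 332 bp. Of its 5563 windows of 100 bases, 233 (4.19%) also occurred unchanged in another gene. *Gm8675* is a copy of *Nedd1*, a chromosome 10 gene whose protein brings gamma-tubulin to the centrosome: 1771 of 1859 aligned positions (95.3%) were identical. The longest identical run was 96 bases, and 0 of its 1757 windows of 100 bases occurred in another gene. *Nedd1* itself had 0, 2 and 0 counts in control and 1, 1 and 0 in knockout, 4 against 126 on its pseudogene. A stretch of 120 bases is shown, as transcript sequence from GENCODE release 21 on GRCm38, with the 8 differing bases in capitals. No gap-free stretch of this length differed more in the longest aligned block (1118 bp), within the coding part of *Nedd1*. The rest of the alignment was not searched. The stretch lies at chr5:151008692-151008811 for *Gm8675* and chr10:92700828-92700947, in the coding part, for *Nedd1*, both on the minus strand.
Gm8675: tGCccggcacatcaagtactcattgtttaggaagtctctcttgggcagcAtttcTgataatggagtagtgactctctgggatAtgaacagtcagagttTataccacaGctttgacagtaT
Nedd1: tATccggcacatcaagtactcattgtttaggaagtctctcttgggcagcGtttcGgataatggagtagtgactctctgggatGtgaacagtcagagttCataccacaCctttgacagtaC

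On chromosome 11, *Gm44787* (ENSMUSG00000108822, chr11:79258586-79273893) and *Gm9964* (ENSMUSG00000055072, chr11:79296179-79296906) are both on the minus strand, 22285 bp apart. The annotation gives *Gm44787* as a lincRNA with 1069 bp in 2 exon blocks and *Gm9964* as a protein-coding gene with a single exon of 728 bp. The lincRNA had 6, 2 and 9 counts in the control libraries and 106, 79 and 60 in the knockout libraries. All knockout libraries were far above all control libraries, and knockout replicate 3 was the lowest of its group. Its level was 2.48 ± 1.27 CPM in control and 40.7 ± 10.5 CPM in knockout (SD, n = 3 each), an estimated log2 fold change of 3.95 (standard error 0.34) and a ratio of summed counts of 15.6 (95% interval 9.57 to 27.3).

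*Gm9964* had 5, 1 and 1 counts in control and 40, 40 and 29 in knockout. The groups did not overlap, and control replicate 1 held most of the control counts. Its level was 1.13 ± 1.18 CPM in control and 18.4 ± 5.14 CPM in knockout (SD, n = 3 each), and the log2 fold change was 4.02 (standard error 0.50), or 5.19 without control replicate 1. The ratio of summed counts was 16.9, with a 95% interval from 7.93 to 43.0. Its share of the counts on both genes was 27.4% (Wilson 95% interval 20.8 to 35.1), 33.6% (25.8 to 42.5) and 32.6% (23.7 to 42.9) in knockout replicates 1 to 3, again alike within counting error, and 5 of 11, 1 of 3 and 1 of 10 counts in control. The knockout level per kilobase of exon was 38.1 ± 9.80 CPM per kb for *Gm44787* and 25.3 ± 7.06 for *Gm9964* (SD, n = 3), and although these ranges over libraries overlapped, *Gm44787* was the higher in each library (43.1 against 23.9, 44.3 against 32.9 and 26.8 against 19.0 CPM per kb).

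The 250 kb on either side of this locus hold 12 other genes, 3 on the plus and 9 on the minus strand, with 6118 counts in the 6 libraries. Closest on the minus strand is *Wsb1*, which encodes a substrate receptor of a ubiquitin ligase and lies 3914 bp beyond the 3′ end of *Gm44787*. *Wsb1* had 0, 0 and 1 counts in control and 3, 4 and 3 in knockout. Its knockout libraries were above its control libraries, but at 11 counts in all it did not pass the filter and was not tested. On the other side *Nf1*, a plus-strand gene whose product neurofibromin switches off Ras, begins 42786 bp from *Gm9964*, and its 4, 3 and 6 counts in control and 4, 1 and 6 in knockout overlapped. The pseudogene *Gm11200*, nearest before the locus on the plus strand, had 1 count.

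Of these 12 neighbours, 7 passed the filter, and 0 passed the threshold in edgeR's test (adjusted p from 0.108 to 0.994, log2 fold changes from -0.11 to 1.14). Limma also called 0 of the 7, and DESeq2 called 0 of the 4 for which it gave an adjusted p, which did not include *Gm11198*. In edgeR 2 of the 7 had an unadjusted p under 0.05, against 11.9% of all tested genes. They were the minus-strand pseudogene *Gm11198*, which is the nearest gene beyond *Gm9964* on its strand, and *Evi2a*, named after its values were seen. *Gm11198* had 17, 13 and 13 counts in control and 43, 16 and 31 in knockout, and its log2 fold change, 1.14 with a standard error of 0.34, did not pass (adjusted p = 0.108 in edgeR and from 0.0710 to 0.431 over the alternatives). In CPM its 3 knockout libraries all lay above its 3 control libraries. For *Evi2a* the log2 fold change was 0.73 (adjusted p = 0.233 in edgeR), with 19, 29 and 30 counts in control and 55, 31 and 35 in knockout. In CPM the knockout libraries of *Evi2a* also all lay above its control libraries, which held in 8.84% of all tested genes. The most counted neighbour was *Gm11201*, an antisense gene on the plus strand, with 722, 666 and 1117 counts in control and 807, 588 and 722 in knockout. Its groups overlapped, and edgeR gave a log2 fold change of -0.11 with a standard error of 0.11 (adjusted p = 0.783). *Gm44787* and *Gm9964* together had 24 counts in control and 354 in knockout, so most of the counts of the region, in both groups, lay on genes that did not pass the test.

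Parts of both genes resemble parts of many other transcripts, which is a limit on how their reads can be placed. The last 194 bases of *Gm44787* (chr11:79258586-79258779) matched transcripts of 2608 other genes, at a median identity of 79.8%, and none of its 970 windows of 100 bases occurred unchanged in another gene. *Gm9964* matched 5948 other genes over 353 bp (48.5% of its transcript), and 23 of its 629 windows (3.66%) occurred unchanged elsewhere. The 3′ end of *Gm44787* is shown from 826 to 1069 of the transcript (GENCODE release 21, chr11:79258586-79258829, minus strand). The stretch that resembles transcripts of many other genes is in capitals.
Gm44787: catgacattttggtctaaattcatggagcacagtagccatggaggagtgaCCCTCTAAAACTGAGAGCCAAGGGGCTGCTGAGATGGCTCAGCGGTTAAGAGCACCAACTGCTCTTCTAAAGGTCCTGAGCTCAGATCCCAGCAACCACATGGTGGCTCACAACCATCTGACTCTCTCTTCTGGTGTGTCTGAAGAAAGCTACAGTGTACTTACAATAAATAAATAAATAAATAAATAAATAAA

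On chromosome 14, *Prss51* (ENSMUSG00000052099, chr14:64086234-64097678) is on the plus strand and *Prss55* (ENSMUSG00000034623, chr14:64075438-64090162) on the minus strand. Their spans overlap over 3929 bp at their 5′ ends. Of the 6 exon blocks of *Prss51*, 1 (173 bp, 13.9% of its exonic bases) lies inside the span of *Prss55*, and 3 of the 8 blocks of *Prss55* (321 bp, 22.9%) lie inside that of *Prss51*. No exonic base of either gene faces an exon of the other. *Prss51* had 14, 16 and 20 counts in control and 164, 105 and 159 in knockout. The groups stood well apart, with little spread within each. Its level was 7.60 ± 0.649 CPM in control and 70.0 ± 6.56 CPM in knockout (SD, n = 3 each), an estimated log2 fold change of 3.20 (standard error 0.20) and a ratio of summed counts of 9.29 (95% interval 6.92 to 12.7). *Prss55* had 0 counts in each control library and 0, 1 and 0 in knockout, so no fold is given, and the name of a gene with a large increase does not hold for it.

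The window of 250 kb around this locus holds 9 other genes, 5 on the plus and 4 on the minus strand, with 102 counts in all (87 on plus-strand and 15 on minus-strand genes). None passed the filter for a test, and 1 had no count. On the plus strand *Prss52*, a further serine protease gene, begins 6607 bp beyond *Prss51* and had 1, 5 and 1 counts in control and 2, 1 and 1 in knockout. The photoreceptor gene *Rp1l1*, 40412 bp before *Prss55*, had 1 count. On the minus strand, the lincRNA *4930471C04Rik* ends 1616 bp beyond *Prss51* and had 0, 2 and 0 counts in control and 0 in each knockout library, and *4930578I06Rik* had 2 counts on the other side. The most counted neighbour was *Pinx1*, whose product binds telomerase, 155578 bp away on the plus strand, with 2, 2 and 8 counts in control and 9, 13 and 12 in knockout. Its knockout libraries were above its control libraries in counts, and it was not tested. *Wsb1* and *Pinx1* were the 2 of 18 untested neighbours with counts for which this held in CPM (4.34% of all untested genes with counts), and 0 had the reverse (2.44% of those genes). *Prss51* and *Prss55* together had 50 counts in control and 429 in knockout. The transcripts of *Prss51* and *Prss55* matched 0 other genes at an e-value of 1e-10.

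**Figure D2:**
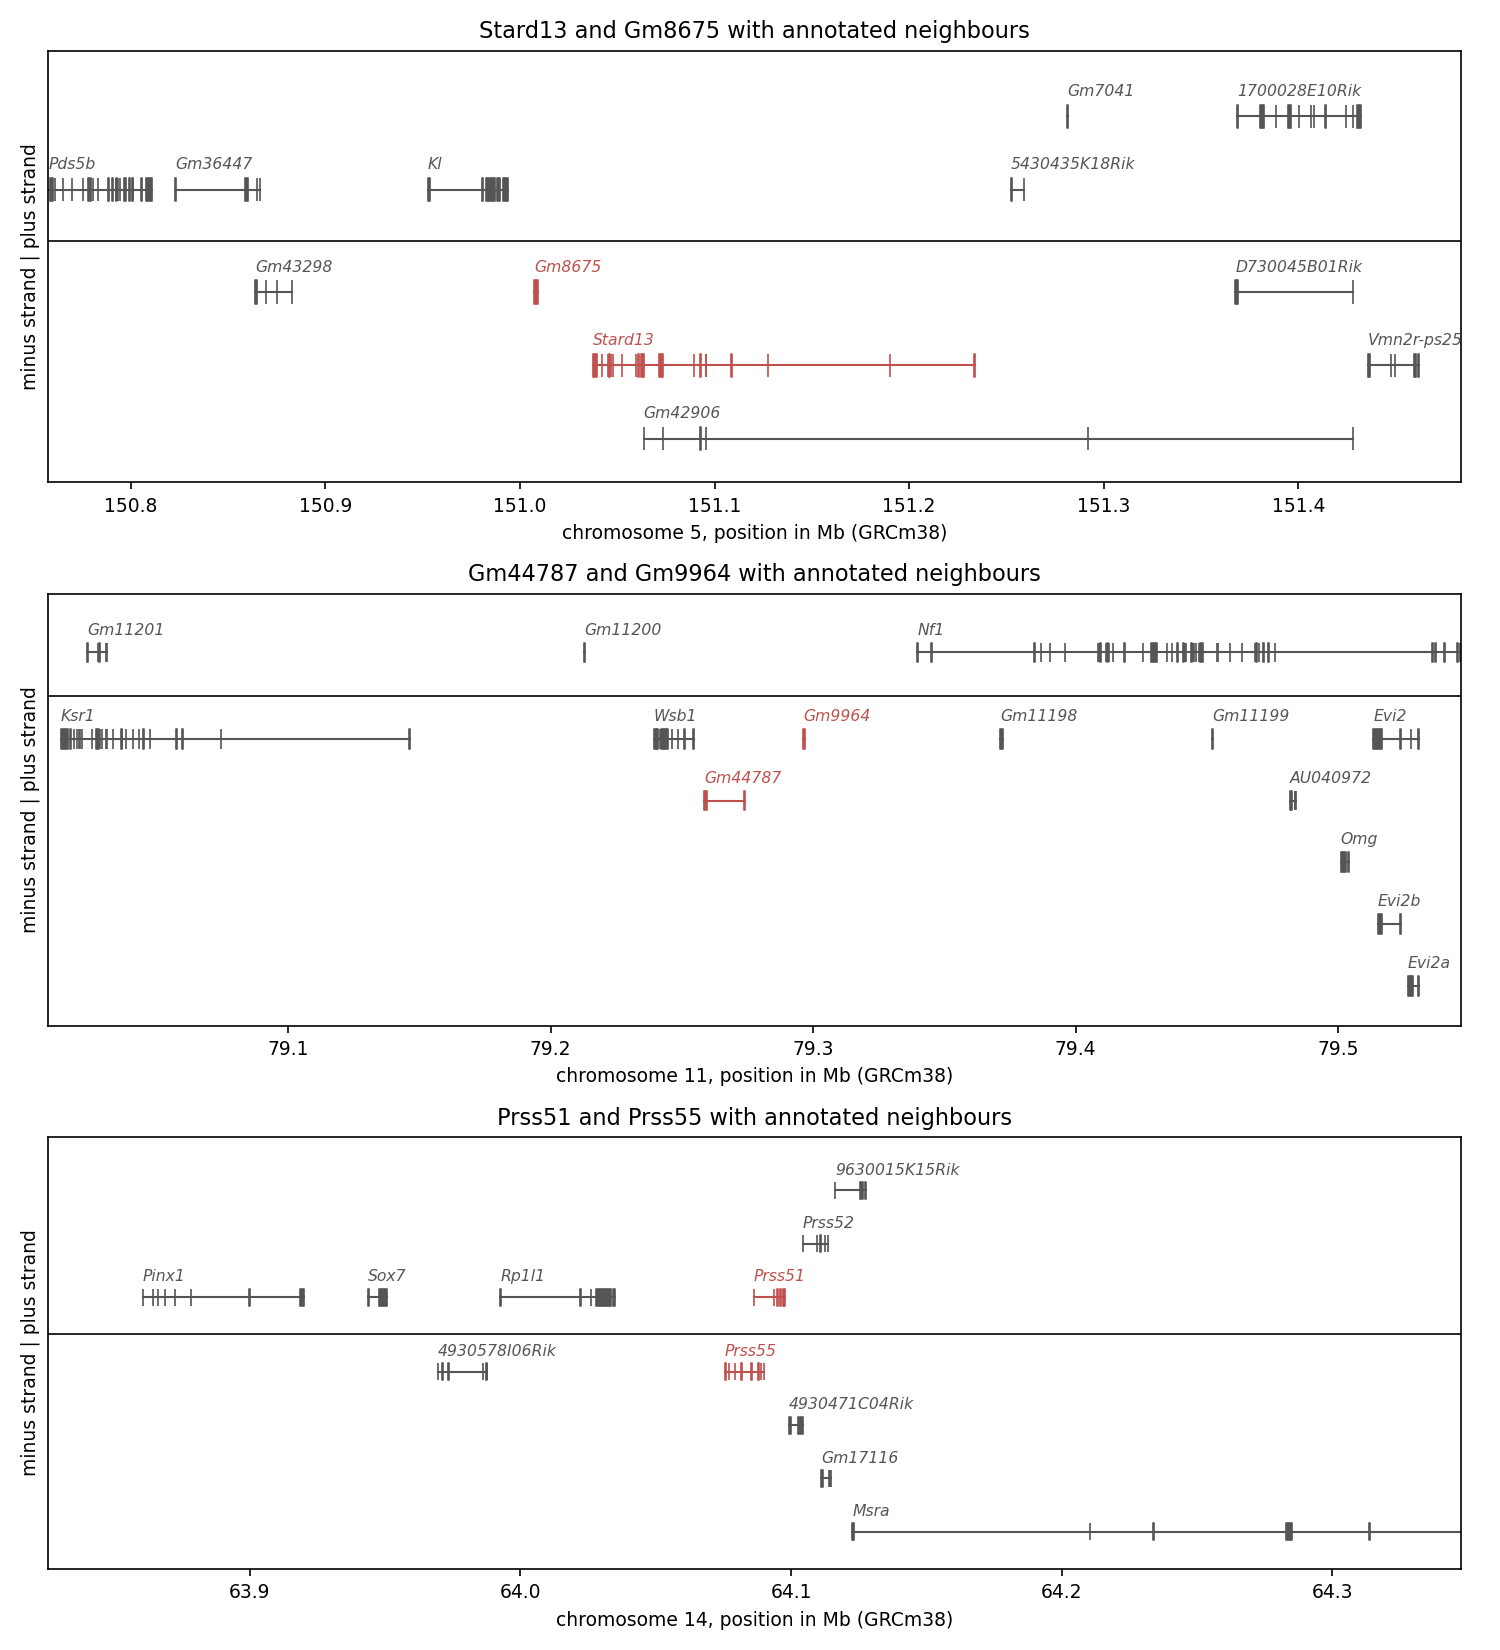
Annotated genes of the 3 loci and 250 kb on either side (horizontal axes, position on GRCm38), with plus-strand genes above and minus-strand genes below the line, exons as boxes and the 6 chosen genes in red. Of the 31 neighbours, 7 were tested, all on chromosome 11, and 0 passed the threshold.

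Over the 3 windows, 7 of 31 neighbours were tested, 6 had positive and 1 negative log2 fold changes, and their median was 0.31, against -0.000872 over all 6831 tested genes. With the tested neighbours all on chromosome 11, little can be said of the regions on chromosomes 5 and 14 beyond the low counts given above. The library kit keeps the strand of the RNA, but the strand setting used in counting is not given in the sources used here. On the mitochondrial genome, the minus-strand gene *mt-Nd6* had 416836 counts and the plus-strand gene *mt-Co1* 3861. In the chromosome 11 window *Gm11201* had 4622 counts and *Ksr1*, whose exons face it over 186 bp on the minus strand and which is named for that reason, had 114. The strand of the transcripts behind a count was therefore not settled. Counts may lie largely on genes of the strand opposite to the transcripts, which was not tested. For the 6 chosen genes and the listed genes too, transcripts of the gene and transcripts from the opposite strand of its exons cannot be told apart in these counts. By the same limit a low count of *Bmal1*, or of a neighbour such as *Kl*, *Nf1* or *Prss55*, is not read as absence of its mRNA. None of the 6 chosen genes has exons that face annotated exons on the opposite strand.

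The 5 counted genes differed among themselves in level. In knockout, *Prss51* was highest per kilobase of exon at 56.3 ± 5.28 CPM per kb (SD, n = 3), followed by *Gm44787*, *Gm9964*, *Gm8675* and *Stard13*. Each of the 3 knockout libraries had this order, and of the genes next to each other in it, *Gm44787* and *Gm9964* had ranges over libraries that overlapped. In CPM, *Stard13*, *Gm8675* and *Prss51* were highest in knockout replicate 3 and lowest in knockout replicate 2, whereas the chromosome 11 pair was highest in knockout replicate 2 and lowest in knockout replicate 3. As a description, the tested genes whose log2 CPM followed the most counted gene of each locus most closely over the 6 libraries were found by Pearson's r, which in these libraries mostly follows the difference between the genotypes. For *Gm8675* they were *A230087F16Rik* (r = 0.975), *Fxyd1* (0.973) and *Adora1* (0.972), with *Stard13* at 0.922. For *Gm44787* they were *Plet1* (0.995), *Mboat1* (0.995) and *Nek6* (0.989), with *Gm9964* at 0.962. For *Prss51* they were *Gm11491* (0.992), *1110018N20Rik* (0.988) and *Dusp13* (0.983). A high r does not mean an increase of like size. The log2 fold changes of these named genes ran from 0.18 (*A230087F16Rik*) to 2.65 (*Mboat1*). *Adora1*, *Plet1*, *Mboat1* and *Dusp13* passed the threshold in edgeR, and *A230087F16Rik*, *Fxyd1*, *Nek6*, *Gm11491* and *1110018N20Rik* did not. By r, *Stard13* ranked 51 for *Gm8675*, after *Prss51* (rank 6, r = 0.969) and *Gm44787* (rank 43) from other chromosomes. For *Gm44787*, *Gm9964* ranked 22 and *Prss51* 24.

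The relatives of the chosen genes were described from lists from which the 6 genes were left out. Of 15 genes in the table of the START domain and DLC family, 4 were tested and 0 passed in edgeR. The median log2 fold change of the 4 was -0.23, and the most counted was *Star*, which brings cholesterol into mitochondria, at 85.2 ± 6.25 CPM in control and 65.6 ± 9.36 CPM in knockout (SD, n = 3). The closest relatives of *Stard13* had few counts, 30 in all on *Dlc1* and 6 on *Stard8*. Of 37 *Prss* genes in the table, 24 had no count, 4 were tested and 0 passed in edgeR (median 0.12), and the most counted, *Prss8*, was at 17.7 ± 3.23 CPM in control and 18.1 ± 2.09 CPM in knockout (SD, n = 3). An unadjusted p under 0.05 in edgeR was found for 2 of the START domain and DLC genes and 0 of the *Prss* genes, against 11.9% of all tested genes. Limma called 0 in either list, as did DESeq2 among the 3 START domain and DLC genes and the 1 *Prss* gene with an adjusted p. Among 11 START domain and DLC genes with counts that were not tested, 2 had all knockout libraries above all control libraries in CPM, against 706 (4.34%) of the 16264 untested genes with counts in the whole table. They are named after their values were seen. The acyl-CoA thioesterase gene *Acot12* had 1, 1 and 1 counts in control and 8, 6 and 7 in knockout, and *Stard10* had 6, 4 and 8 in control and 18, 6 and 17 in knockout.

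Of 13 clock genes driven through E-boxes, 5 were tested, 2 had an unadjusted p under 0.05 in edgeR (against 11.9% of all tested genes) and 1 passed the threshold (against 1.83%), *Nr1d1*, which encodes the clock repressor REV-ERB alpha (median of the 5, 0.07). Its CPM were higher in all 3 knockout libraries than in any control library and rose from 139 ± 5.91 CPM to 209 ± 18.9 CPM (SD, n = 3 each; log2 fold change 0.58, adjusted p = 0.00965 in edgeR), and the call was lost without knockout replicate 1 (adjusted p = 0.0628) or knockout replicate 2 (0.0780). Over its alternatives the adjusted p ranged from 0.00202 to 0.334. Exons of *Nr1d1* face annotated exons of the opposite strand over 263 bp, and the strand behind its counts was not settled either. Of 5 clock genes driven through RORE elements, 1 was tested, *Clock*, and it did not pass (log2 fold change -0.08). Among the untested clock genes, named after their values were seen, *Npas2* had 1, 0 and 0 counts in control and 4, 2 and 2 in knockout, with all knockout libraries higher in CPM. *Per3* had 2, 2 and 3 in control and 0, 1 and 1 in knockout, with all knockout libraries lower in CPM, as in 397 (2.44%) of the 16264 untested genes with counts.

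Markers of the cell types of the tissue were counted as whole lists, since in a bulk sample fewer cells of a type and less RNA per cell cannot be told apart. The 13 fast fiber genes summed to 8653, 11116 and 9901 CPM in control and 11844, 12270 and 14082 CPM in knockout. The knockout sums were all higher, so this list moved with the 5 chosen genes, and its part in their values was not tested. Its median log2 fold change was 0.46, 12 of its 13 genes had an unadjusted p under 0.05 in edgeR (against 11.9% of all tested genes), 2 passed the threshold (6 in DESeq2, 0 in limma), and its most abundant gene was *Myh4*, the fastest myosin, at 3700 ± 732 CPM in control and 4819 ± 563 CPM in knockout (SD, n = 3). Those that passed were the calcium buffer *Pvalb* (log2 fold change 0.90, adjusted p = 0.00700 in edgeR) and the fast regulatory light chain *Mylpf* (0.85, adjusted p = 0.00241), and all 3 knockout libraries were above all control libraries in both. Their adjusted p ranged over the alternatives up to 0.227 and 0.272, both with limma.

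The remaining cell types had 0 genes past the threshold in edgeR and limma, and 0 of the 6 with an adjusted p in DESeq2. In edgeR 2 of their 16 tested genes had an unadjusted p under 0.05, near the share of 11.9% over all tested genes. The median log2 fold change was 0.01 for slow fibers (1 of 7 genes tested, most counted *Atp2a2*, with *Tnni1* at 0), -0.31 for endothelium (5 of 10, *Tek*), -0.17 for mural and smooth muscle cells (3 of 7, *Tagln*) and 0.10 for fibroblasts (3 of 6, *Col3a1*). For macrophages and other immune cells the value was that of *Csf1r* alone, -0.41 (1 of 6 tested), with *Adgre1*, *Ptprc* and *Itgam* at 0. Of 39 untested markers with counts in the remaining cell types, 3 had all knockout libraries above all control libraries in CPM and 0 had them all below, against 4.34% and 2.44% of all untested genes with counts. The 3, named after their values were seen, were *Cd68* (6, 4 and 3 counts in control, 7, 6 and 10 in knockout), *Dcn* (4, 2 and 2, then 6, 6 and 5) and *Chrdl2* (0 in control, 1 in each knockout library). The median was 0.13 for blood (1 of 5, *Alas2*) and 0.27 for adipocytes (1 of 5, *Fabp4*), while no gene of the satellite cell list (most counted *Pax7*) or the Schwann cell list (*S100b*) was tested. Male germ cells, in which many *Prss* genes are expressed, were included for the chromosome 14 locus. Of their 8 markers *Prm2*, *Acrv1*, *Acr* and *Ddx4* had no count, and 1, *Sycp3*, was tested, at 226 ± 42.5 CPM in control and 254 ± 32.5 CPM in knockout (SD, n = 3; adjusted p = 0.696 in edgeR). The summed level of this list was 278, 202 and 205 CPM in control and 283, 264 and 218 CPM in knockout, and the groups overlapped. Nearly all of that sum was *Sycp3*, whose exons face annotated exons of the opposite strand over 660 bp. The other markers with counts had 8 in control and 2 in knockout (*Prm1*), 5 and 2 (*Tnp1*), and 2 and 0 (*Tnp2*).

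Of the 6 genes, *Stard13* is in the RefSeq table of promoters (build GRCm38.p6), which gives 250 bases before to 50 bases after the gene's start. Its window is shown because the gene is first in the order of increases. It was searched on both strands for the E-box CACGTG, the D-box TTATGTAA, the nuclear receptor motif AGGTCA and the estrogen response element, the motif for the receptor that tamoxifen binds. The window (chr5:151190144-151190443, minus strand, inside the annotated span of the gene) held 1 match to AGGTCA, in capitals, and 0 to the other motifs. It held 2 matches to the broader E-box CANNTG, which includes CACGTG and of which 1 overlaps the AGGTCA match, and 72.3% of all windows hold at least 1. Of all 32851 windows in the table, 16.3% held AGGTCA, 7.15% CACGTG, 0.938% TTATGTAA and 0.0700% the estrogen response element. A match or its lack describes these letters in this window only.
Stard13: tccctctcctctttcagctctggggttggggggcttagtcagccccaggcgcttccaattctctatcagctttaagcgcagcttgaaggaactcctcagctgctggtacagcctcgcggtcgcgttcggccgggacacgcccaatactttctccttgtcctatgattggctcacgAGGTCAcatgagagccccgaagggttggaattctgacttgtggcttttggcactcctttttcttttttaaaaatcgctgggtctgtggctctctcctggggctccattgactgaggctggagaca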

How the data were processed

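RNA-seq was made from 3 iMS*Bmal1*+/+ (control) and 3 iMS*Bmal1*-/- (knockout) tibialis anterior samples with a stranded kit after removal of ribosomal RNA. The authors aligned the reads with HISAT2 (mm10) and obtained gene counts from HTSeq (versions and strand setting are not given in the sources used here). They deposited raw counts, whose unit is the count. They also deposited a normalized signal, which equals the count divided by 1 DESeq2 size factor per library (0.828 to 1.26). Columns were assigned by sample label, and 0 were left unassigned. Gene positions came from GENCODE mouse release 21 (GRCm38), which lacks 147 of the 52636 identifiers.

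Counts were normalized by TMM and tested with edgeR 4.0.16 (R 4.3.3) after its filter on low counts, by the quasi-likelihood test, two-sided, with Benjamini-Hochberg adjustment over all tested genes. The common biological coefficient of variation was 14.8%, and 814 genes had an unadjusted p under 0.05. The sources number the samples of a group, and p-values measure the spread between these samples. Library pairs within a genotype differed by more than counting noise (chi-square per degree of freedom 2.88 to 10.1). Ratio intervals are exact for counts, and intervals and floors cover counting error only. Transcripts were compared with BLAST+ 2.17.0. Python 3.11.15 with pandas 2.3.3, numpy 2.4.6 and scipy 1.17.1 made the summaries.

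The 6 genes and the lists were chosen with earlier results of these data known. Also named by rule were genes overlapping a chosen gene, the nearest on each side and strand, the most counted of each window, the next in the order of increases, the 3 most alike by Pearson's r, *Bmal1*, and in each list the most counted gene and those past the threshold. Alternatives were DESeq2 1.42.0, no filter, at least 10 counts in every library, upper-quartile normalization, limma 3.58.1 on log2(signal + 1), the replicate number as a block, windows of 100 and 500 kb, and leaving out each library. The second RNA-seq experiment of the study and values per exon were not analysed here.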

Additional observations from a re-analysis of the deposited data

How the results depend on the processing

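Over the alternatives that gave a value (11 each, and 12 for *Prss51*), the log2 fold changes of the 5 counted genes, whose sign was set by how they were chosen, were 3.57 to 5.51 for *Stard13*, 3.25 to 4.13 for *Gm8675*, 3.63 to 4.28 for *Gm44787*, 3.53 to 5.19 for *Gm9964* and 3.09 to 3.27 for *Prss51*. A minimum of 10 counts in every library left the other 4 without a value. Tested neighbours past the threshold numbered 0 under every alternative (with DESeq2, of the 4 with an adjusted p), also with windows of 100 kb (1 tested) and 500 kb (9 tested). The log2 fold change of *Gm11198* ranged from 0.88 to 1.34 and that of *Gm11201* from -0.17 to -0.01.

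Genes past the threshold in the whole table numbered 125, against 122 with DESeq2, 219 with no filter on low counts and 14 with limma on the normalized signal. The listed genes past the threshold numbered 3, against 7 with DESeq2, 7 with no filter and 0 with limma. With the replicate number as a block, as if samples of the same number were paired, these counts were 220 and 11, although the deviations of same-number libraries from their group means had correlations of only -0.0373, -0.0166 and -0.0289. Leaving out 1 library gave from 60 (without knockout replicate 2) to 109 genes (without control replicate 2), with 66 without knockout replicate 1, and from 2 to 6 listed genes (6 without control replicate 2). Fewer samples were then tested; otherwise the cause was not tested. At 1616290 to 2716079 counts per library, the control levels of *Stard13*, *Gm8675* and *Gm9964* rest on 4, 10 and 7 counts, which limits the precision of their differences.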

Other observations

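Neighbouring increases also occurred elsewhere, in a search made after the values had been seen. Among the 52 genes past the threshold in edgeR with higher values in knockout, 6 pairs lay within 100 kb of each other, the chromosome 5 and chromosome 11 pairs among them. On chromosome 7 *Arhgef17* is 5522 bp from *P2ry6*, the gene of a nucleotide receptor, both on the minus strand. Their log2 fold changes were 0.79 and 1.25 (adjusted p = 0.00329 and 0.0225 in edgeR).

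On chromosome 12 *Gm37804* and *Gm48008*, both on the plus strand and 8864 bp apart, had log2 fold changes of 0.65 and 0.63 (adjusted p = 0.0172 and 0.0261 in edgeR). On chromosome 19 *Cd6*, the gene of a T cell surface protein (minus), and the peptide transporter gene *Slc15a3* (plus), 9668 bp apart, had log2 fold changes of 1.84 and 0.90 (adjusted p = 0.0183 and 0.0465 in edgeR). The increases of these 3 pairs were smaller than those of the 5 counted genes. All 6 genes missed the threshold with limma, and *Slc15a3*, *P2ry6* and *Gm48008* passed it under 6 of 12 alternatives, *Cd6* under 5 of 10, *Gm37804* under 8 of 12 and *Arhgef17* under 11 of 12.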
